A study of Mus musculus with 2 samples.

Results

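Dlx1, Dlx2, Dlx5, Dlx6, Lhx6, Isl1, Gad1, Gad2, Meis2 and Foxp1 are 10 genes of the subpallium and of GABAergic neurons, and they carried 376 of the 219409 adenosine positions listed as N6-methyladenosine (m6A) in the cerebellum and cerebrum of a newborn mouse. A listed position was counted for a gene when it lay between the start and end of that gene in GENCODE release M21 on GRCm38 (mm10), on the strand of the gene. The cerebellum list held 71 of these sites and the cerebrum list 351, and 46 were in both lists. The data came from GLORI, in which glyoxal and nitrite deaminate unmethylated adenosine so that it is read as G, while m6A is still read as A. There was 1 library of poly(A)+ RNA per tissue, both from a female of the F1r cross (C57 mother, PWK father) at postnatal day 0, both GLORI-treated. The lists give positions only, with no methylation rate and no read number, and with 1 library per tissue no difference between the tissues was tested. Listed positions were used as deposited and were not checked against m6A-seq peaks, so some may not be m6A. An adenosine absent from a list can be unmethylated, methylated below the minimum rate that the authors required, not expressed or too thinly covered. In bulk tissue fewer cells of a type and less RNA per cell cannot be told apart.

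The subpallium is the ventral part of the embryonic forebrain. It gives rise to the striatum and other basal ganglia and to most GABAergic interneurons, many of which migrate into the cortex. The homeodomain factors of the Dlx family act early in this lineage, and the glutamate decarboxylases then make GABA from glutamate in any GABAergic neuron, including those of the cerebellum. m6A is written on nascent mRNA, mostly at adenosines within the motif DRACH (D stands for A, G or T, R for A or G, and H for A, C or T), is depleted close to exon junctions, and is read by proteins that affect mRNA decay and translation.

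The sequences show the DRACH site nearest the stop codon in 9 of the genes, taken from sites found in both libraries or, where there was none, from the cerebrum. Gad1 had no such site. Each line gives the mm10 interval and the strand, each sequence is written 5′ to 3′ as DNA, and capitals mark the motif with the listed adenosine at its centre.
Dlx1, coding sequence of exon 3, chr2:71532396-71532416, plus strand, cerebrum: tggaatccGAACTcctcatct
Dlx2, 3′ UTR, chr2:71544499-71544519, minus strand, cerebrum: cctcgagtGGACAgcgtctga
Dlx5, 3′ UTR, chr6:6878118-6878138, minus strand, cerebrum: cagttttgGGACTacagtgtt
Dlx6, 3′ UTR, chr6:6867934-6867954, plus strand, cerebrum: tgagtttaAGACAttacatga
Lhx6, 3′ UTR, chr2:36083863-36083883, minus strand, cerebrum: cctgctgaGAACCagaaccca
Isl1, 3′ UTR, chr13:116299466-116299486, minus strand, cerebrum: ggcatgagGAACAttcattca
Gad2, 3′ UTR, chr2:22690393-22690413, plus strand, both libraries: gttgtcacAAACTgtgtaaat
Meis2, 3′ UTR, chr2:115864385-115864405, minus strand, both libraries: taagacatGGACCcccaatgc
Foxp1, 3′ UTR, chr6:98929887-98929907, minus strand, both libraries: aaacgtgtTAACTcttagtgc
In all 9 genes the site lay in the last exon of its isoform. It was between 4 nt (Isl1) and 652 nt (Dlx6) from the stop codon. The Dlx1 site lay 112 nt before the stop codon and the other 8 lay after it. For Meis2 this holds on the isoform Meis2-205. On the Meis2 isoform with the longest coding sequence the printed site is coding, and the nearest DRACH site of both libraries is a GAACT at chr2:115864217, 10 nt after the stop codon.

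The cerebellum list held 79355 sites and the cerebrum list 188295, so the cerebrum had 2.37 sites for each cerebellum site in the libraries as a whole. The share of DRACH was 62.2% for the cerebellum list and 46.8% for the cerebrum list. The tissue labels matched the lists of regional genes: of 10 cerebellar genes, 6 carried a DRACH site in the cerebellum and 1 in the cerebrum, and of 10 cerebral genes, 4 carried one in the cerebellum and 10 in the cerebrum. En1 and En2, homeobox genes of the midbrain and hindbrain, had 5 and 8 DRACH sites in the cerebellum but 0 in the cerebrum list.

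The 4 Dlx genes, Lhx6 and Isl1 had sites in the cerebrum and none in the cerebellum, while both Gad genes, Meis2 and Foxp1 had sites in both libraries. The cerebrum sites numbered 35 in Dlx1, 12 in Dlx2, 9 in Dlx5, 12 in Dlx6, 21 in Lhx6 and 15 in Isl1. Gad1 had 7 sites in the cerebellum against 14 in the cerebrum, Gad2 11 and 30, Meis2 37 and 111, and Foxp1 16 and 92. Thus 6 of the 10 genes carried a DRACH site in the cerebrum and none in the cerebellum, a pattern found in 27.3% of the 11284 genes with a DRACH site in either list. All 6 had at least 7 cerebrum DRACH sites, and among the 4111 genes with that many the pattern was found in 3.5%. This cutoff was the lowest number among the 6 genes, that of Dlx5, so the 3.5% is not independent of them. Gad2, Meis2 and Foxp1 also passed the cutoff, without the pattern.

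**Figure D1:**
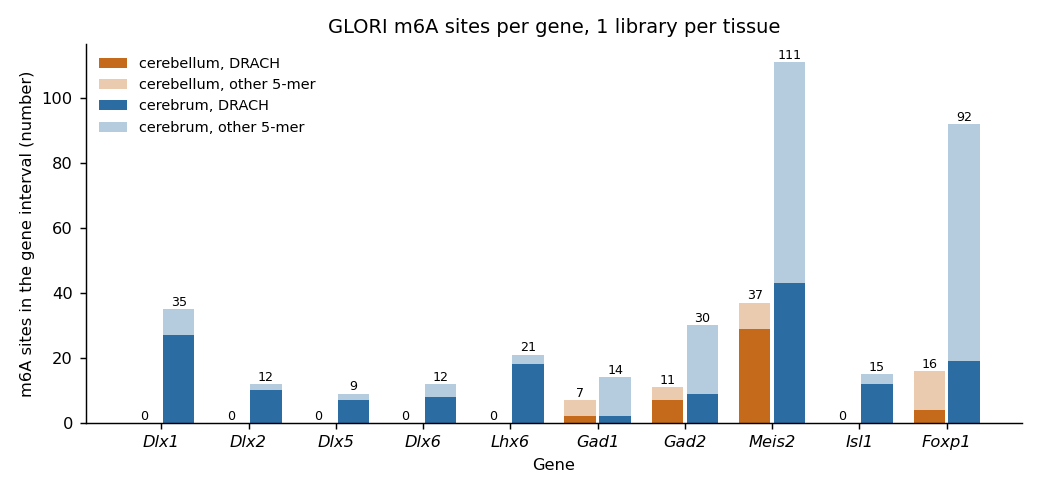
Number of m6A sites (vertical axis) in the interval of each gene (horizontal axis), in the cerebellum (orange) and cerebrum (blue), with DRACH sites in full colour, other 5-mers in pale colour and the total above each bar. Dlx1, Dlx2, Dlx5, Dlx6, Lhx6 and Isl1 stood at 0 in the cerebellum and at 9 to 35 in the cerebrum.

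Dlx1 and Dlx2 lie next to each other on chromosome 2, and Dlx5 and Dlx6 on chromosome 6. All 4 encode homeodomain transcription factors that act in subpallial progenitors and young GABAergic neurons. Dlx1 (chr2:71528113-71533981) carried 27 DRACH sites in the cerebrum, of which 6 were in the 5′ UTR, 3 in the coding sequence and 17 in the 3′ UTR, and 1 was on an exon outside complete coding isoforms. Dlx2 (chr2:71543408-71546754) carried 10 DRACH sites, 1 in the coding sequence and 9 in the 3′ UTR. Dlx5 (chr6:6877805-6882085) carried 7, of which 5 were in its 3′ UTR of 354 nt. Dlx6 (chr6:6863334-6868568) carried 8, all in the 3′ UTR, and they began 652 nt after the stop codon, while those of Dlx2 began at 11 nt and those of Dlx5 at 31 nt. The Dlx genes therefore differed among themselves in where the listed adenosines stood, as the map of sites around the stop codon shows.

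**Figure D2:**
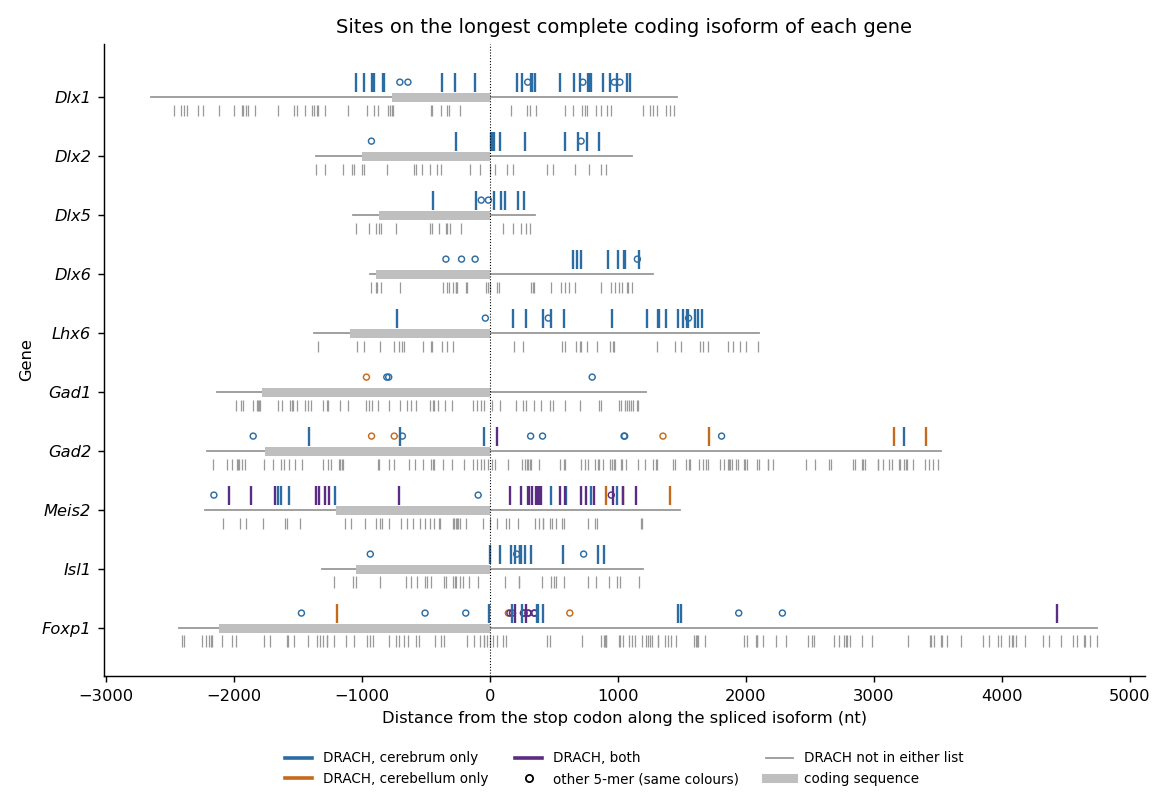
Positions of sites on the longest complete coding isoform of each gene, as distance from the stop codon in nt (horizontal axis), with 1 row per gene. Bars above a line are DRACH sites and circles other 5-mers, coloured by library, grey ticks below are DRACH adenosines in neither list and the grey box is the coding sequence; the Dlx6 sites after the stop codon start at 652 nt and those of Dlx2 at 11 nt.

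Listed adenosines stood close together in several of these 3′ UTRs. The next sequences show, for 5 of the 6 genes in which 3 cerebrum sites of a coding isoform fitted into 30 nt, the window that held them. The sixth gene, Foxp1, is described with its own stretch. Capitals again mark the 5-mers, which touch or overlap where sites are close.
Dlx1, chr2:71532839-71532853, plus strand: GGACCGGACCAGACT
Dlx2, chr2:71544487-71544511, minus strand: GGACAgcgtctgAGACTtgaGAACT
Lhx6, chr2:36082500-36082513, minus strand: TGACTgaGGACAAA
Isl1, chr13:116299234-116299247, minus strand: AAACAAACAAAACC
Meis2, chr2:115864150-115864179, minus strand: AGACTctctGAACTttgaccagatgTGACA
Each window held 3 sites. All were DRACH except the last site of the Lhx6 window, whose 5-mer ACAAA overlaps the GGACA before it. The 3 Dlx1 sites lay between 323 and 333 nt after the stop codon, directly adjoining, and the 3 Isl1 sites between 235 and 244 nt. The 3 Meis2 sites were in both libraries, while those of the other 4 genes were in the cerebrum alone. Sites this close share the reads that cover them, so they are not independent observations.

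Lhx6 and Isl1 encode LIM homeodomain factors. Lhx6 marks interneurons of the medial ganglionic eminence, and Isl1 is used by striatal projection neurons and by motor neurons outside the forebrain. Lhx6 (chr2:36081953-36105408) carried 18 DRACH sites in the cerebrum, 17 of them in a 3′ UTR of 2101 nt and 1 in exon 4. Those of the UTR reached from 182 to 1658 nt after the stop codon, with a median of 1320 nt, so most of them stood far into the UTR. Isl1 (chr13:116298281-116309689) carried 12, all in the 3′ UTR, between 4 and 889 nt with a median of 241.5 nt. Neither gene had an intronic site, although the Lhx6 interval spans 23.5 kb, nor had any Dlx gene. A site was called intronic only when it lay outside every annotated exon of its gene. Dlx1 had 1 DRACH site and 2 other sites in the cerebrum on exons outside complete coding isoforms.

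Gad1 and Gad2 encode the glutamate decarboxylases, GAD67 and GAD65. They were listed in both tissues, with few DRACH sites for the length of their transcripts. Gad1 (chr2:70553072-70602014) had 2 DRACH sites per library, none of them on its longest complete coding isoform. The site they shared was intronic, a GGACT at chr2:70561940, and the others lay on exons outside complete coding isoforms. Of 63 DRACH adenosines on that isoform, 0 were listed in either library (95% Wilson interval 0 to 5.75%). There were 2373 coding genes with at least as many DRACH adenosines and at least as many sites in each library as Gad1. Of them, 13 had none listed on the isoform, Gad1 included, or 0.548%. Both limits are lower limits, so genes with more adenosines and more sites count too, and the 0.548% was not read as a measure of rarity. At the rates of other genes for the same 5-mers in the same kind of exon, the Gad1 isoform would carry few sites. The sum was 1.37 for the cerebellum list and 2.45 for the cerebrum list. Of these 63 adenosines 33 lay in short internal exons, and none of the 26 in the last exon was GGACT. None was GAACT and none was AGACT either. In the last exons of other genes these 3 motifs were listed at 32.6%, 26.9% and 23.9% of their occurrences in the cerebrum, above all other DRACH 5-mers. The only exonic Gad1 sites in both libraries were a pair outside DRACH in the 3′ UTR of a shorter isoform, Gad1-205, 612 and 619 nt after its stop codon, shown here with the capitals marking their 5-mers.
Gad1, chr2:70585066-70585077, plus strand: CTACCagACAGT
Gad2 (chr2:22622205-22693874) had 7 DRACH sites in the cerebellum against 9 in the cerebrum, and 1 of them was shared, the AAACT printed above at 57 nt after the stop codon. Its isoform held 129 DRACH adenosines, of which 4 were listed in the cerebellum and 5 in the cerebrum, and the 3′ UTR of 3528 nt accounted for 4 and 2 of these. The 3 DRACH sites found in the cerebellum alone on this UTR stood 1714, 3161 and 3408 nt after the stop codon, and the other cerebrum site of this UTR at 3238 nt. A further Gad2 site, intronic and found in the cerebellum alone at chr2:22676401, was the only site of the 10 genes without an adenosine in the mm10 sequence. The authors also called sites on a genome carrying PWK bases.

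Meis2 encodes a TALE homeodomain factor of the striatal primordium that is also made in other brain regions. It had the most sites of the 10 genes in either library. Meis2 (chr2:115863064-116065839) carried 29 DRACH sites in the cerebellum against 43 in the cerebrum, and 25 were found in both. Of the cerebellum sites 7 were in the 5′ UTR, 1 in the coding sequence, 20 in the 3′ UTR and 1 in an intron. The cerebrum sites comprised 11 in the 5′ UTR, 1 in the coding sequence, 21 in the 3′ UTR, 2 on other exons and 8 in introns. The 5′ UTR of its isoform Meis2-205 measures 1026 nt, and the site nearest the coding sequence among those in both libraries there is shown next.
Meis2, 5′ UTR, chr2:116064855-116064875, minus strand: tcttatccGGACTgggatatt
Dlx1, whose 5′ UTR measures 1881 nt, was the only other of the 10 genes with a DRACH site in this region. The remaining Meis2 sites were mostly outside DRACH and intronic, 51 in the cerebrum against 4 in the cerebellum. With all sites the cerebrum had 3 Meis2 sites for each cerebellum site, and with DRACH sites 1.48, where the medians over genes with sites in both libraries were 2.17 and 1.67.

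Foxp1 encodes a forkhead factor of striatal projection neurons and of upper and middle cortical layers, and its gene (chr6:98925338-99522721) spans 597 kb. It had 4 DRACH sites in the cerebellum against 19 in the cerebrum, and 4.75 DRACH sites in the cerebrum for each in the cerebellum. The upper quartile of that ratio over 7787 genes was 2.5. Its sites in both libraries were of another kind than those of Meis2: 9 of the 12 were outside DRACH. The first 400 nt of the 3′ UTR held 15 sites, of which 10 were in both libraries, 2 of them DRACH and 8 not. The 4 sites of the cerebrum alone in this stretch were all DRACH, and the single site of the cerebellum alone was not. All 4 GGATT 5-mers of the stretch were listed in both libraries, as were both GTACT. The stretch and these 5-mers were picked from sites listed in these data, so their rates are not independent of that choice. Over the whole Foxp1 3′ UTR, 4 of 5 GGATT and 2 of 5 GTACT were listed in each library. In the 3′ UTRs of other genes GGATT was listed at 2.83% of 17251 occurrences in the cerebellum and 5.1% in the cerebrum, and GTACT at 3.6% and 5.93% of 14282. A window of 3 sites found in both libraries, the most within 30 nt, is shown next, and another window that shares its GGACC held as many.
Foxp1, chr6:98929784-98929806, minus strand: GGACCtgtttgGTACTtgGGATT
Of 20715 coding genes, 8 had at least 8 sites outside DRACH on the 3′ UTR in both libraries, Foxp1 included. Among 560 genes with at least 10 sites of any 5-mer there in both libraries, the median share outside DRACH was 11.1%, and 2 genes, Foxp1 included, reached the share that Foxp1 had, 8 of 11.

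The lists hold no methylation levels, so the share of the DRACH adenosines of the longest complete coding isoform that were listed, called occupancy here, was used to compare genes. In the cerebrum it was 31.7% in Dlx1 (26 of 82), 27.8% in Dlx2 (10 of 36), 28% in Dlx5 (7 of 25), 18.6% in Dlx6 (8 of 43), 32.7% in Lhx6 (18 of 55) and 26.7% in Isl1 (12 of 45). It was 38.4% in Meis2 (33 of 86), 8.15% in Foxp1 (11 of 135), 3.88% in Gad2 and 0% in Gad1. The median over 9322 coding genes with at least 1 listed DRACH adenosine was 6.76%, and the upper quartile was 12.8%. The lower bounds of the 95% Wilson intervals were above this upper quartile in Dlx1, Dlx2, Dlx5, Lhx6, Isl1 and Meis2, and the Dlx6 interval of 9.74 to 32.6% contained it. The intervals of these 7 genes overlapped each other, so their order was not resolved. They count the adenosines of a transcript as independent, which those that share reads are not, so they can be too narrow. Of the ranked genes, 1.13% were above Meis2, 2.25% above Lhx6 and 2.68% above Dlx1, whereas 70.3% were above Gad2. In the cerebellum Meis2 had an occupancy of 32.6% (28 of 86), and 0.831% of 7221 genes were above it. Gad2 had 3.1% and Foxp1 2.96%, where the median was 4.67%. The 6 genes without cerebellum sites had 0% there, with upper bounds from 4.48% (Dlx1) to 13.3% (Dlx5). The lists give no read numbers, so transcripts of different coverage cannot be told apart from transcripts of different methylation in these values.

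**Figure D3:**
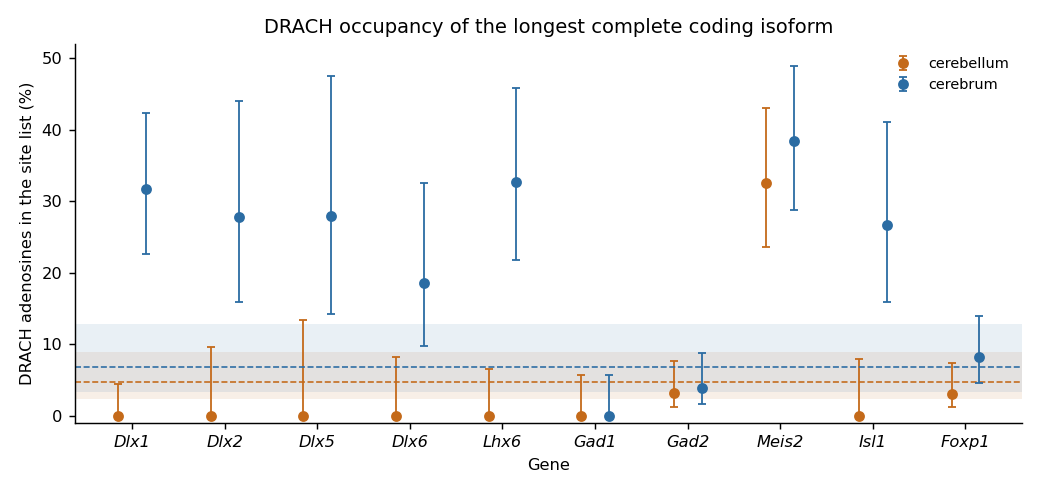
Share of the DRACH adenosines of each gene's longest complete coding isoform that were in the site list (vertical axis, %), in the cerebellum (orange) and cerebrum (blue). Error bars are 95% Wilson intervals and reflect only how many adenosines were counted. Dashed lines are the medians over coding genes with a listed DRACH adenosine (4.67% and 6.76%) and bands their quartiles; 6 genes have cerebrum intervals wholly above the cerebrum band.

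Motif and exon class were then held equal. Each DRACH adenosine was given the share at which its 5-mer was listed in the same class of exon (first, short internal, long internal, last or single) in other coding genes with a listed DRACH adenosine, and these shares were summed over the isoform. In the cerebrum the sum was 6.31 for Dlx1, where 26 were listed, 4.12 times as many. The corresponding ratio was 2.72 in Dlx2, 3.18 in Dlx5, 2.41 in Dlx6, 3.37 in Lhx6, 3.45 in Isl1 and 4.2 in Meis2. It was 1.04 in Foxp1 and 0.459 in Gad2, and for Gad1 the sum was 2.45 with 0 listed. In the cerebellum Meis2 had 28 listed for a sum of 4.56, a ratio of 6.14, while Gad2 stood at 0.626 and Foxp1 at 0.652. For the 6 genes without cerebellum sites the sums there ran from 1.29 (Dlx5) to 3.54 (Dlx1), with 0 listed. At the rates of other genes these isoforms would thus also carry few cerebellum sites. The transcription factors other than Foxp1 thus carried more listed sites in the cerebrum than their motifs and exons gave at the rates of other genes, and both Gad genes carried fewer. These are descriptions of 1 library each, with no test.

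**Figure D4:**
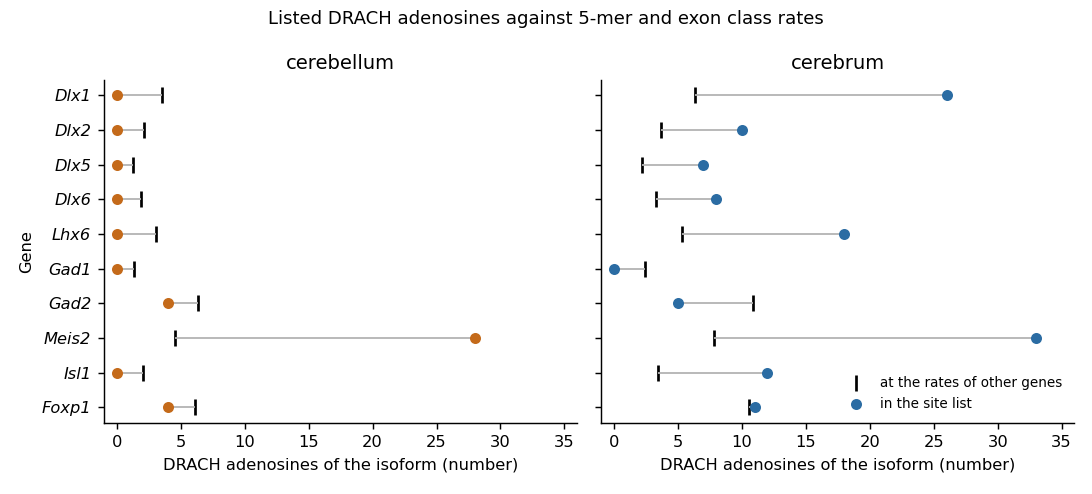
Listed DRACH adenosines of each isoform (coloured points, number on the horizontal axis) and the number summed from the rates of other genes for the same 5-mers and exon classes (black bars), in the cerebellum (left) and cerebrum (right). In the cerebrum Dlx1 stands at 26 against 6.31 and Gad2 at 5 against 10.9.

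Over the 10 genes together, DRACH took 42 of 71 sites in the cerebellum, 59.2% (95% Wilson interval 47.5 to 69.8%), and 155 of 351 in the cerebrum, 44.2% (39.1 to 49.4%). Introns held 146 of the cerebrum sites, 41.6%, against 14 of the cerebellum sites, 19.7%. In other coding genes, with a site counted for every gene it lay in, these shares were 29.6% and 21.8%. The intronic sites of the 10 genes all lay in Gad1 (9), Gad2 (22), Meis2 (63) and Foxp1 (63), and 3 of these were in both libraries. Of the intronic cerebrum sites 13.7% were DRACH, where other genes had 21.7%. Of the exonic cerebrum sites 65.9% were DRACH (59.1 to 72%), where other genes had 60%. The genes had 4.94 cerebrum sites for each cerebellum site, and 6 of the 10 contributed to the cerebrum alone. Parts of Foxp1, Lhx6 and Gad2 overlap other annotated genes on the same strand, and without the sites in such overlaps 70 sites remained in the cerebellum list and 320 in the cerebrum list.

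The 3′ UTR held 41 of the 53 cerebellum sites on coding isoforms, 77.4% (64.5 to 86.5%), and 130 of the 178 cerebrum sites, 73% (66.1 to 79%). Of all DRACH adenosines of the 10 isoforms, 56.8% lay in the 3′ UTR. Last exons contained 41 and 139 of these sites, 77.4% and 78.1%, against 61.4% of the DRACH adenosines, and the 10 isoforms had no DRACH adenosine in a long internal exon. Positions up to 200 nt from the stop codon, before or after it, held 11.3% of the sites in the cerebellum (5.29 to 22.6%) and, for the cerebrum, 15.7% (11.1 to 21.8%). Of the DRACH adenosines 10.2% lay there, a value inside the cerebellum interval and below the cerebrum interval. The cerebellum value of 11.3% rested on the choice of isoform: on the isoform with the longest coding sequence it was 29.2% (18.2 to 43.2%). The site shares of this paragraph count any 5-mer, whereas their references count DRACH adenosines of the longest isoform. Of the 71 DRACH adenosines in this window, 4.23% were listed in the cerebellum and 28.2% in the cerebrum, where other genes had 11.2% and 19.2%. The 6 genes without cerebellum sites held 34 of the 71 and could add none to the cerebellum value, so it was not read as low.

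By region, 25.4% of the 397 3′ UTR DRACH adenosines of the 10 genes were listed in the cerebrum, against 10.4% in other genes. In the 5′ UTR 19.3% of 88 were listed, against 4.89%, and all 17 of these were in Dlx1 and Meis2. In the coding sequence 5.61% of 214 were listed (3.24 to 9.54%), against 7.84% in other genes, which lies inside the interval. Adenosines in short internal exons were listed at 3.98% (1.94 to 7.98%), against 1.22% in other genes, and those in last exons at 24.7%, against 11.6%. Within 100 nt of an exon junction 5% of 200 DRACH adenosines were listed, and farther away 24% of 499, where other genes had 2.06% and 12.6%. The 5-mers listed most often in the cerebrum were GGACA with 20 sites and GGACT with 17. Next came AGACT with 16 sites, and both GAACT and TGACT also had 16. GAACT was listed at 51.9% of its 27 occurrences on the isoforms (34 to 69.3%), against 20% in other genes, and GGACT at 35.1% of 37 (21.8 to 51.2%), against 22.9%.

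Of the 155 cerebrum DRACH sites, 30 were also in the cerebellum, 19.4% (13.9 to 26.3%), where the share for the whole cerebrum list was 45.3%. The 6 genes without cerebellum sites could add only unshared sites here. Among the 4 genes with cerebellum sites 30 of 73 were shared, 41.1% (30.5 to 52.6%), an interval that contains the value of the whole list. Meis2 alone gave 25 of the 30, Foxp1 3, and Gad1 and Gad2 1 each. In the other direction 30 of 42 cerebellum DRACH sites were in the cerebrum, 71.4% (56.4 to 82.8%), where the whole list had 81%. Among sites outside DRACH 16 of 196 cerebrum sites were shared, 8.16%. The share over the whole list was not computed for such sites, so this value was not read as high or low. Meis2 held 5 of the 16 and Foxp1 9.

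**Figure D5:**
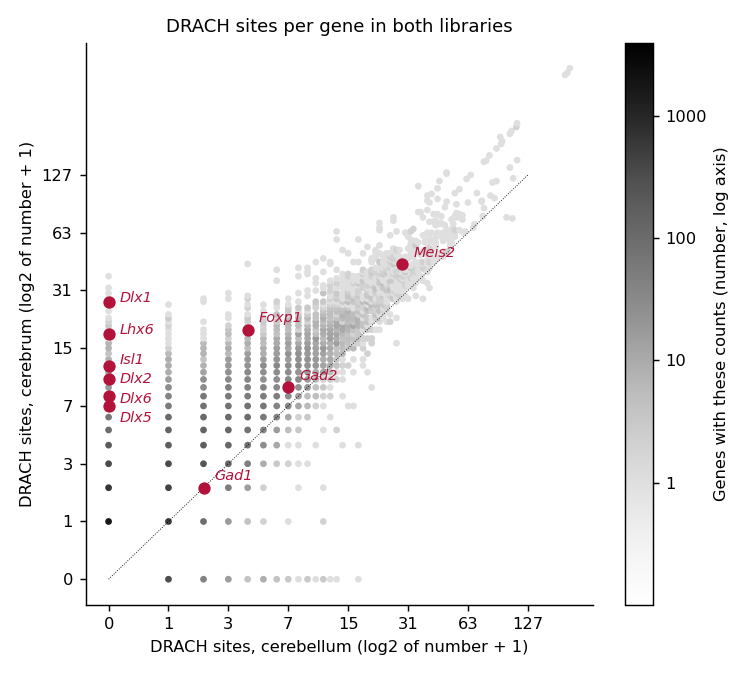
DRACH sites per gene in the cerebellum (horizontal axis) and cerebrum (vertical axis), both as log2 of the number plus 1, with grey points shaded by how many genes share the counts, red points for the 10 genes and a dotted line of equality. Dlx1, Dlx2, Dlx5, Dlx6, Lhx6 and Isl1 stand on the left edge at 0 cerebellum sites, and Meis2 near the upper end at 29 and 43.

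The Dlx genes fall into related pairs that do not follow the gene neighbourhoods. The encoded proteins of Dlx1 and Dlx6 were identical at 62.9% of 245 aligned residues and those of Dlx2 and Dlx5 at 54% of 278, whereas the neighbours Dlx1 and Dlx2 were identical at 47.5% and Dlx5 and Dlx6 at 41.6%. The coding sites seldom stood at the same place. Over the 6 Dlx pairs, 3 had sites at 1 aligned codon and the others at none, and in 1 of the 3 both sites were DRACH. It joined codon 133 of Dlx1 and codon 142 of Dlx5, both in exon 2, shown with the corresponding stretch of the other Dlx genes and with capitals on the aligned 5-mer.
Dlx1, chr2:71531030-71531050, plus strand, listed in the cerebrum: taaacccaGGACAatttattc
Dlx5, chr6:6879632-6879652, minus strand, listed in the cerebrum: taaacccaGGACTatttattc
Dlx6, chr6:6865145-6865165, plus strand, not listed: gaagcctcGGACCatttattc
Dlx2, chr2:71545490-71545510, minus strand, not listed: gaaaccacGCACCatctactc
The Dlx6 5-mer is a DRACH motif that was in neither list, and the Dlx2 5-mer is not DRACH. Gad1 and Gad2 were identical at 65% of 585 aligned residues, and of 3 Gad1 and 6 Gad2 coding sites none stood at the same codon. Of 8 further paralogs, 4 carried a DRACH site in each library. With any 5-mer counted, Dlx3, Dlx4 and Isl2 had no site in either list, Lhx8 had 1 in the cerebrum, and Meis1 had 14 in each. Of the Meis1 sites 8 were DRACH in the cerebellum and 5 in the cerebrum. It was the only paralog with more DRACH sites in the cerebellum, and 2 had more in the cerebrum.

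The sites of other subpallial and GABAergic genes were counted from lists chosen by function. Of all 21951 coding genes, 45.2% carried a DRACH site in the cerebrum and 35% in the cerebellum. Of 26 further subpallial factors the shares were 88.5% (23 genes) and 65.4% (17 genes), with 448 and 274 DRACH sites in all, a ratio of 1.64 where the libraries as a whole had 1.79. Of these factors 22 had more DRACH sites in the cerebrum than in the cerebellum and 1 had fewer, where 8471 of all coding genes had more and 742 fewer. The factor with fewer, Zfhx3, had 99 in the cerebellum against 76 in the cerebrum, and its 99 made up a large part of the 274. Of the factors with none in the cerebellum and at least 3 in the cerebrum, Sp8, Etv1 and Rarb had 0 in the cerebellum and 5, 4 and 11 in the cerebrum. Sp8 encodes a zinc finger factor of subpallial progenitors and interneurons, and Rarb a retinoic acid receptor of the striatum. All 5 genes of GABA transport and breakdown carried DRACH sites in both libraries, with 42 for the cerebellum against 46 for the cerebrum, a ratio of 1.1. Of 12 genes of GABAergic subtypes, 6 carried a DRACH site in the cerebrum and 1 in the cerebellum. Drd1 and Drd2, the dopamine receptors of striatal projection neurons, had 11 and 3 in the cerebrum and 0 in the cerebellum. Of 6 factors of cerebellar GABAergic neurons, 3 carried a DRACH site in the cerebellum and 2 in the cerebrum.

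Dlx1 and Dlx6 each have an antisense neighbour with sites of its own. The noncoding Dlx1as had 19 sites in the cerebrum, 18 of them DRACH, and Dlx6os1 had 38, of which 16 were DRACH. Neither had a site in the cerebellum. The strand in the lists separates these from the sites of Dlx1 and Dlx6.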

How the data were processed

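The authors called m6A sites in each GLORI library with GLORI-tools on mm10 and on a copy of it that carries the PWK base at each SNP, and kept sites above a minimum methylation rate and read count. The unit of the deposited files is a genomic position of 1 nt with its strand, unlike a rate or count, so depth is unknown. Sequence was read from GRCm38 and gene models from GENCODE M21, which is not the release named in the study's methods. The name of the deposited cerebrum file holds the abbreviation used for cerebellum, and tissues were taken from the sample labels. The study took as high-confidence only those GLORI sites that overlapped m6A-seq peaks of the tissue. The m6A-seq libraries were not used here, so this step was not applied.

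A site on coding exons was assigned to the longest complete coding isoform covering it. A 5-mer was read with A at its centre. Long internal exons had at least 400 nt. Shares have 95% Wilson intervals over sites. Proteins were translated from GRCm38 and aligned with BLOSUM62 (gap opening -11, extension -1). All 10 genes are named, with their antisense neighbours and genes of the lists on subpallial factors and GABAergic subtypes with 0 DRACH sites in 1 library and at least 3 in the other, some of which are not reported here. The further paralogs, Zfhx3 and, from the regional genes, En1 and En2 were named after their values were seen. The members and lists were chosen with earlier results of these data known. Transcript models were compared with the transcript sequences that GENCODE provides, and 1000 of 1000 were equal. In these transcripts 17613 of 17613 planted sites were counted. Planting and counting used the same positions, so that count could not show an error. Tools were Python 3.11.15, pandas 2.3.3, numpy 2.4.6, pysam 0.24.0, samtools 1.23.1, Biopython 1.88 and matplotlib 3.10.9.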

Additional observations from a re-analysis of the deposited data

Results flagged for a closer look

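The strand opposite Dlx1, which the counts of the 10 genes do not use, carried 10 sites in the cerebrum, 9 of them DRACH, and 0 in the cerebellum. It was singled out because a signal of more than 3 sites stood outside the counted strand. All lay within the interval that Dlx1 shares with the antisense gene Dlx1as.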

How the results depend on the processing

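Of 37 alternative values, 22 stayed close to the reported value (within its interval, or within 1.5 times for a number of sites) and 15 moved. None was marked as turned in direction, but counts and shares have no direction to turn. Restricting to exons left 205 member sites in the cerebrum and raised their DRACH share to 65.9%. Without Foxp1 the cerebrum DRACH share was 52.5% and the intronic share 32.4%, and without Meis2 the intronic share was 36.2%. Without Meis2 the cerebellum DRACH share was 38.2%, occupancy was 1.31% (cerebellum) and 15.8% (cerebrum), and 4.46% of cerebrum DRACH sites were shared. With all exons of a gene together, occupancy was 3.13% and 11.4%. A stop codon window of 400 nt held 39.6% and 38.8% of the sites, and the isoform with the longest coding sequence put 29.2% of cerebellum sites within 200 nt. With DRACH sites alone, the cerebrum had 3.69 sites per cerebellum site. No paired analysis was possible because each tissue has 1 library. The lists carry no depth, so a site missing from a library cannot be read as unmethylated.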
